A study of Caenorhabditis elegans with 2 samples.

Results

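Translation factors are the soluble proteins that bring messenger RNA, initiator tRNA and ribosomal subunits together, move the ribosome along the message and release the finished chain. Their genes in Caenorhabditis elegans were examined here for binding of KLF-2, a Krüppel-like zinc-finger transcription factor. The genes were chosen by name, as all protein-coding genes whose symbol begins with eif, eef, ife, ifg, iff, iftb, etf or erfa followed by a hyphen. This gave 41 genes of 19973, and no gene carried an iftb or etf symbol. The set holds 11 subunits of eIF3, 12 genes of eIF2, eIF2B and the smaller factors eIF1, eIF1A, eIF2A and eIF2D, 7 eIF4 genes, 3 genes for eIF5A and eIF6, 6 elongation factor genes and 2 release factor genes. Names, not binding, decided membership, so subunits with other names, such as egl-45 (eIF3 subunit A), are outside it.

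KLF-2 occupancy had been measured by ChIP-seq in 1 group of 2 biological replicates. The embryos came from strain RW12310, in which a CRISPR insertion directed at klf-2 adds TY1, EGFP and 3xFLAG tags to the protein, and they were obtained by bleaching and labelled mid-embryonic with an age of 1.5 hours. Immunoprecipitation used an anti-GFP antibody on chromatin of whole embryos, so the signal averages over all embryonic cell types. No untagged strain or second condition was analysed here, and read depth is not given in the files used. The series holds a ranked list of 111583 peaks derived from the alignments of the pair of replicates, and a conservative list of 1032 peaks that passed the authors' irreproducible discovery rate (IDR) threshold.

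Initiation in animals starts with eIF1, eIF1A, eIF3 and the initiator tRNA carrier eIF2 on the small ribosomal subunit. The eIF4 factors bind the cap and bring in the messenger RNA. During elongation eEF1A delivers aminoacyl-tRNAs and eEF2 moves the ribosome on, and eRF1 with eRF3 ends the chain at a stop codon. eIF3 is the largest of the initiation factors and serves as a scaffold for the others. Many C. elegans transcripts lose their original 5′ end by trans-splicing, so an annotated transcript start can lie downstream of the place where transcription begins.

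A gene was called bound when the summit of a conservative peak lay between 1000 bp upstream and 500 bp downstream of one of its annotated transcript starts. By this rule 9 of the 41 genes (22.0%) were bound, against 610 of all 19973 protein-coding genes (3.05%). The 9 were eif-3.C, eif-3.I, eif-3.B, eif-3.J and eif-3.E of eIF3, eif-1.A (eIF1A), iff-2 (eIF5A), the elongation factor gene eef-1A.1 (eEF1A) and the release factor gene erfa-3 (eRF3). Each had 1 conservative peak, no peak was shared between members, and all 9 summits lay upstream of the start, at 57 to 901 bp. No test of the set was made, since the genes were singled out with earlier results of these data known.

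The sequence under 4 of these summits, all outside exons of protein-coding genes, is shown so that the bound promoters can be compared. The sequence at eef-1A.1 overlaps an annotated exon of the microRNA gene mir-5549. Each run is 101 bases of WBcel235, whose coordinates are those of ce11, centred on the summit and read 5′ to 3′ on the strand of the translation factor gene. Capitals mark matches, on either strand, to any of 10 short motifs, each named in the next paragraph with its share of all promoter peaks. Among these are forms of the GC box, written CCGCCC, and of the CACCC box, with CCACCC as its longer form, which Krüppel-like zinc fingers recognise; matches to these may overlap.
eif-3.B, II:14795116-14795216, plus strand: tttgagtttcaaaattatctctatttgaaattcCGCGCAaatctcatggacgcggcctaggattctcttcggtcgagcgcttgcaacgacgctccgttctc
eef-1A.1, III:6972054-6972154, minus strand: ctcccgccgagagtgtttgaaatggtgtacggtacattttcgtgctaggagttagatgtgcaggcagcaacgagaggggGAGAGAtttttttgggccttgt
iff-2, II:8561374-8561474, minus strand: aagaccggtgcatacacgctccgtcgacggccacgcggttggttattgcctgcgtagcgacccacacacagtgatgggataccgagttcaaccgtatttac
eif-1.A, IV:4810534-4810634, plus strand: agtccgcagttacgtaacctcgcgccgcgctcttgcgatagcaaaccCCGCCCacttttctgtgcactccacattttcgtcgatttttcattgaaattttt

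Of the 9 bound members, eif-1.A alone had a CCGCCC box within 50 bp of the summit, and it is the capitalised run in its sequence above. CCACCC was in none of the 9 centres, and the shorter CACCC was in 1, that of eif-3.J. Over all 482 conservative peaks in promoter windows the corresponding shares were 11.4% for CCGCCC, 3.53% for CCACCC and 12.2% for CACCC. The run CGCGCA was found at eif-3.B and eif-3.C (14.3% of all promoter peaks) and the self-complementary GCGCGC at eif-3.E and eif-3.I (12.2%). GAGAGA was found in 2 of the 9 centres, that of eef-1A.1 among them (11.8%). The centre of iff-2 held none of the 10 motifs. None of the 9 centres held the splice-acceptor-like TTTCAG (8.71% of promoter peaks), the GATA site TGATAA (3.94%), the E-box CACGTG (1.66%) or GGTTCG (7.26%), a piece of the tRNA gene's internal promoter. A missing match says only that these letters are absent from the 101 bases.

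The centres of the 9 peaks were rich in G and C, like those of other promoter peaks. Their median was 50.5% G and C, against 49.5% over all 482 promoter peaks. The flanks of the same peaks, a pair of 50 bp stretches that begin 250 bp from the summit, had medians of 31.0% for the 9 and 36.0% for all promoter peaks. The centre exceeded its own flanks in 8 of 9 peaks. The exception was eif-3.J, with 37.6% in the centre and 46.0% in the flanks.

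To place the genes that were not bound, each gene was given the highest signal value of any peak of the ranked list with its summit in the promoter window. The signal value is a number the authors' files give for each peak, in units not stated, and has a meaning only within a list. It was therefore turned into a percentile among all 19973 protein-coding genes, with genes lacking a peak kept at 0. The translation factor genes had a median signal value of 42.0, and the median over all genes was 30.0. Their median percentile was 74.5, and 32 of 41 lay above the median of all genes. In the top 10% of genes were 14 of 41 (34.1%), against 10% of all genes by construction. At the low end, 3 of 41 (7.32%) had no ranked peak in the window, against 22.1% of all genes. Signal values ran from 68.7 to 188 in the 9 bound genes and from 0 to 64.8 in the other 32. These ranges did not overlap, and the conservative call rests on the same peaks. Over all genes such ranges did overlap: bag-1, at 93.45, was not bound, whereas lin-17, at 64.51, was bound.

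**Figure D1:**
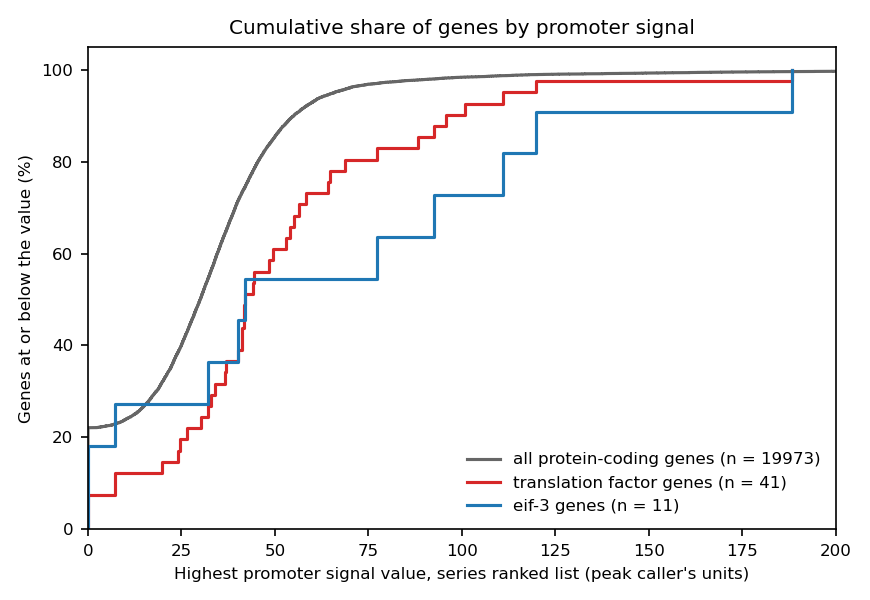
Cumulative share of genes (y axis, %) at or below a given highest promoter signal value in the ranked list of both replicates (x axis, in the peak caller's units, shown up to 200). The curve of the 41 translation factor genes lies to the right of that of all 19973 genes, with medians of 42.0 and 30.0, and the curve of the 11 eif-3 genes is flat between 42.0 and 77.3, where none of them lies.

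Each replicate taken singly also placed most members above the median gene. The median percentile of the 41 genes was 66.2 in replicate 1 and 75.7 in replicate 2. In the top 10% of genes were 10 genes in replicate 1 and 13 in replicate 2 (10% of all genes in each), and 9 were in the top 10% of both, against 4.39% of all genes. These 9 were the 9 bound genes, with 0 exceptions; the conservative list was made from both replicates, so this is not independent of the call. Across the 31 members with a ranked peak in each replicate, the highest signal values had Spearman's rho of 0.701 and Pearson's r of 0.761 on the log2 scale. Over the 8338 genes of the genome with a peak in each, the values were 0.368 and 0.486. The 31 include the 9 bound genes, which were high in both replicates, so this contrast is not independent of the call either. The thresholded lists of single replicates were shorter and held fewer members. In that of replicate 1, 3 of 41 were bound (eif-2Bgamma, eif-3.B and eif-3.C; 1.29% of all genes), and in that of replicate 2 also 3 (eif-3.C, eif-3.I and erfa-3; 1.52% of all genes). Only eif-3.C passed in both. The other thresholded list of the series, with 1027 peaks, had 8 members, with eif-2Bgamma present and eif-3.E and eif-1.A absent (3.05% of all genes).

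**Figure D2:**
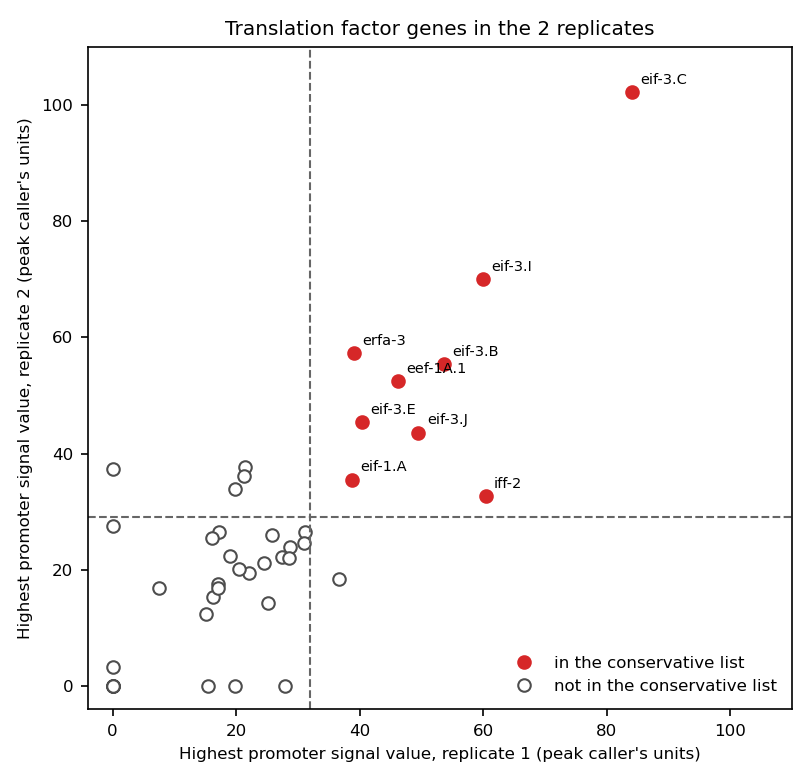
Highest promoter signal value of each of the 41 genes in replicate 1 (x axis) and replicate 2 (y axis), in the peak caller's units of each list, with filled points for the 9 genes in the conservative list and dashed lines at the 90th percentile of all genes. The filled points are the ones beyond both lines, and eif-3.C stands farthest out with 84.1 and 102.

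Among the complexes, eIF3 had the largest number of bound genes, 5 of its 11 named subunits (45.5%, beside 3.05% of all genes). It is also the largest group, and in share it did not lead: 1 of 2 genes was bound for eIF1 with eIF1A, for eIF5A and for the release factors. The strongest was eif-3.C, which encodes a subunit of the structural core. Its peak, on chromosome I from 9979743 to 9980038 with the summit 229 bp upstream, had a signal value of 188 in the series list, 84.1 in replicate 1 and 102 in replicate 2. It ranked 128 of 1032 in the conservative list, and its gene stood at percentile 99.6, with 99.5 and 99.7 in the replicates. This was the only member in the top 1 percent of genes.

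The peak of eif-3.I, a WD-repeat subunit, lay inside the annotated gene (chromosome I, 2487760 to 2488055). The gene has 2 annotated starts, and the summit fell in an intron of the longer transcript, 496 bp upstream of the start of the shorter one. It had a signal value of 119.8 in the series list, 59.9 in replicate 1 and 70.1 in replicate 2, and the gene stood at percentile 99.0. The gene for its partner in the complex, eif-3.B, had a peak 238 bp upstream (chromosome II, 14795018 to 14795313) with 111 in the series list, 53.7 in replicate 1 and 55.4 in replicate 2, at percentile 98.8. Both genes were in the top 10% in each replicate, and neither peak had another protein-coding gene in reach.

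The other bound eIF3 genes had lower peaks. For eif-3.E, a subunit with a PCI domain, the summit lay 200 bp upstream (chromosome I, 10642333 to 10642628), with 77.3 in the series list, 40.4 in replicate 1 and 45.4 in replicate 2. The same peak lay 548 bp upstream of the divergent gene B0511.17. For eif-3.J, whose product is only loosely attached to eIF3 in yeast and mammals, the summit lay 901 bp upstream, in the 3′ UTR of slc-25A46, the next gene on the same strand (chromosome I, 13434440 to 13434735). Its signal values were 92.4 in the series list, 49.5 in replicate 1 and 43.6 in replicate 2, and a window of 500 bp upstream to 200 bp downstream no longer held it.

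The remaining 6 eIF3 genes lay well apart from these 5. In the ranked list of both replicates none exceeded percentile 74.5, whereas the lowest of the bound was at 97.1. The conservative call rests on the same peaks, so the order of the 2 groups is not independent of it. The highest of the 6 was eif-3.D, a cap-binding subunit in mammals, with 42.0 in the series list, 27.5 in replicate 1 and 22.3 in replicate 2. It was followed by eif-3.G, an RNA-recognition-motif subunit, at percentile 71.3, with 40.1 in the series list, 28.6 in replicate 1 and 22.1 in replicate 2. For eif-3.H, an MPN-domain subunit at percentile 54.6, the values were 32.2, 16.3 and 15.2 in the same order. The value of eif-3.L was 7.34 in the series list, at percentile 22.9, with no peak in either replicate's list. No peak of the ranked list lay in the windows of eif-3.F and eif-3.K, although the list of replicate 2 had a peak of 27.5 at eif-3.K (percentile 87.5). Grouped after the values were seen, 3 of the 4 named subunits that have a counterpart in the budding yeast core (eif-3.B, eif-3.C, eif-3.G and eif-3.I) were bound. Of the PCI and MPN module of mammalian eIF3, the set holds only some subunits (eif-3.C, eif-3.E, eif-3.F, eif-3.H, eif-3.K and eif-3.L). Of these 6, 2 were bound, and eif-3.C is in both groups. The remaining subunit of the yeast core, A, is encoded by egl-45, which had no ranked peak in its window.

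**Figure D3:**
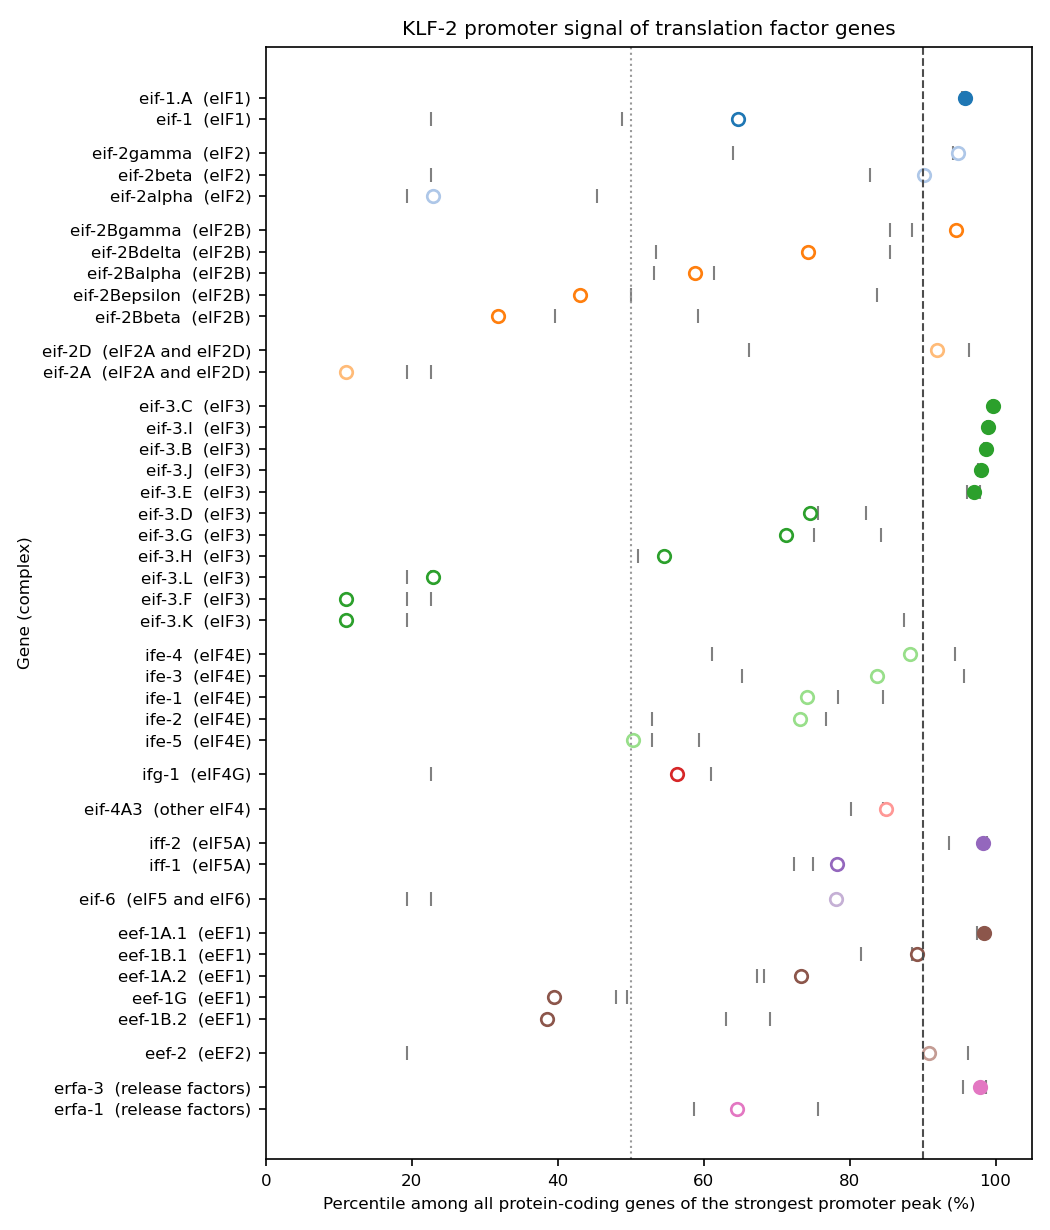
Percentile among all protein-coding genes (x axis, %) of the highest promoter peak of each of the 41 genes (y axis, grouped by complex), with circles for the ranked list of both replicates, filled where the gene has a conservative peak, and grey ticks for the lists of replicates 1 and 2; a gene without a listed peak sits at the mean rank of all such genes. The dotted line is the median of all genes and the dashed line the 90th percentile. The 5 filled eIF3 circles lie at 97.1 or more and the 6 open ones at 74.5 or less. Filling and position rest on the same peaks.

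The other factors of the small-subunit complex had 1 bound gene. This was eif-1.A, for eIF1A, which occupies the decoding site during scanning. Its peak lay 350 bp upstream (chromosome IV, 4810436 to 4810731) and had 68.7 in the series list, 38.8 in replicate 1 and 35.5 in replicate 2, at percentile 95.8. It was the lowest of the 9 in the series list, whereas in replicate 1 the peak of erfa-3 was lower (36.5) and in replicate 2 that of iff-2 (32.7). The value of erfa-3 given here is that of the peak nearest to its summit. Its highest value in the window in replicate 1 was 39.05, above that of eif-1.A. The gene of eIF1, the partner of eIF1A, is eif-1, which stood at percentile 64.7. It had a value of 36.8 in the series list, 15.4 in replicate 1 and no peak in replicate 2.

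None of the 10 genes of eIF2, of its exchange factor eIF2B and of eIF2A and eIF2D was bound. The share over all genes was 3.05%, and 10 genes are too few to compare with it. Of the 10, 4 reached the top 10% of genes. The first of them was eif-2gamma, the GTP-binding subunit, with 64.8 in the series list (percentile 94.8), just under the weakest bound member. The replicates parted on it, with 36.6 in replicate 1 (percentile 94.2) and 18.4 in replicate 2 (percentile 64.0). Its summit lay 821 bp upstream, and the upstream gene on the same strand, tbca-1, had the same highest signal value. The next was eif-2Bgamma, at 64.1 (percentile 94.6), which passed in the thresholded list of replicate 1 and in the other series list. For eif-2D, at percentile 92.0, replicate 1 gave 66.2 and replicate 2 gave 96.4, and for eif-2beta, at percentile 90.1, they gave 82.8 and no peak. The other end of the range also fell in this group, with eif-2alpha, the subunit that stress kinases phosphorylate, at percentile 22.9 (7.14 in the series list, no peak in replicate 1 and 3.31 in replicate 2) and no peak at eif-2A in any of the 3 ranked lists. The 5 eIF2B genes spread from percentile 31.8 to 94.6.

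No eIF4 gene was bound either, and the 7 genes are again too few to compare with the 3.05% of all genes. The 5 eIF4E genes, which encode cap-binding proteins, formed a series from ife-5 at percentile 50.3 through ife-2 (73.2), ife-1 (74.2) and ife-3 (83.8) to ife-4 (88.3). Their replicates spread too widely to settle this order: ife-4 stood at 61.2 in replicate 1 and 94.4 in replicate 2, ife-3 at 65.2 and 95.7, and ife-2 at 76.8 and 52.9. Each gene was also given the largest −log10 global IDR of any ranked peak in its window, which need not be its peak of highest signal. By this value ife-3 led the members not bound, with 1.62, and the lowest of the bound members had 2.16. The value of eif-2Bgamma was 1.26, although that gene passed in other lists. The eIF4G gene ifg-1, whose product bridges cap and ribosome, stood at percentile 56.3. The value of eif-4A3, a helicase of the exon junction complex, was at percentile 85.0, with 84.6 in replicate 1 and 80.2 in replicate 2.

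Of the pair of eIF5A genes, iff-2 was bound and iff-1 was not. eIF5A carries the hypusine modification and helps the ribosome through difficult stretches such as runs of proline; iff-1 is known for its role in the germ line and iff-2 in somatic tissue. The summit at iff-2 was the closest to a start of the 9, at 57 bp upstream (chromosome II, 8561276 to 8561571). Its signal value was 95.6 in the series list, 60.4 in replicate 1 and 32.7 in replicate 2, with ranks of 469 and 2872 in the replicates' lists, the widest gap between replicate ranks among the 9. For iff-1 the values were 44.3 in the series list, 24.6 in replicate 1 and 21.2 in replicate 2, at percentile 78.3. In every list iff-2 exceeded iff-1. The eIF6 gene eif-6 had 44.2 in the series list and no peak in either replicate's own list.

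Among the elongation factors a similar pair was found for eEF1A, the GTPase that delivers aminoacyl-tRNA to the ribosome. The gene eef-1A.1 was bound, with a peak on chromosome III from 6971956 to 6972251 that had 101 in the series list, 46.2 in replicate 1 and 52.4 in replicate 2, at percentile 98.4. The values of eef-1A.2 were 41.3 in the series list, 22.2 in replicate 1 and 19.4 in replicate 2, at percentile 73.4, so that eef-1A.1 was above eef-1A.2 in all 3 lists. The peak of eef-1A.1 did not belong to that gene alone. Its summit lay 392 bp upstream of eef-1A.1, 149 bp upstream of the divergent gene rfc-4, a replication factor C subunit, and within 100 bp of the microRNA gene mir-5549. It was the only 1 of the 9 peaks nearer to the transcript start of another protein-coding gene and the only 1 near a small-RNA gene. Of the genes for the eEF1 exchange factor, eef-1B.1 stood at percentile 89.3, eef-1G at 39.5 and eef-1B.2 at 38.6. The gene of the translocase eEF2, eef-2, stood at percentile 90.9, with no peak in replicate 1 and percentile 96.2 in replicate 2.

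Of the release factors, erfa-3, for the GTPase eRF3, was bound and erfa-1, for the stop-codon reader eRF1, was not. The peak of erfa-3 lay 300 bp upstream and had 88.2 in the series list, 36.5 in replicate 1 and 57.3 in replicate 2, at percentile 97.8. It also lay 516 bp upstream of the divergent gene math-33. The values of erfa-1 were 36.7 in the series list, 19.0 in replicate 1 and 22.3 in replicate 2, at percentile 64.5.

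**Figure D4:**
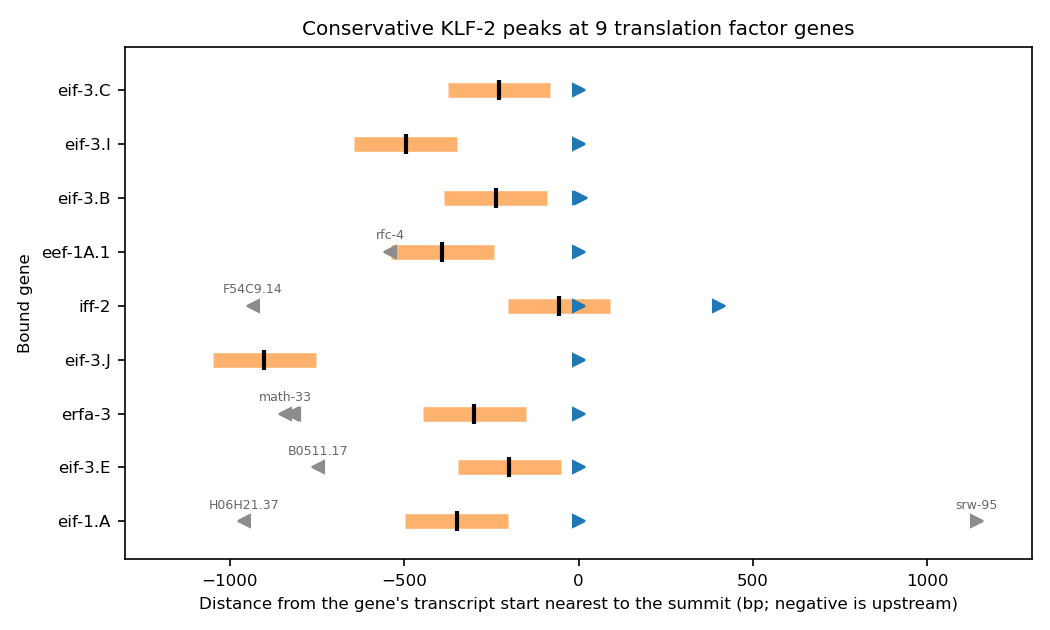
Position of the 9 conservative peaks (bars, with the summit as a black tick) relative to the transcript start of the bound gene nearest to the summit (x axis, bp, negative is upstream), with blue triangles for starts of the bound gene and grey triangles for starts of other protein-coding genes, pointing in the direction of transcription. All 9 summits lie upstream, from 57 bp at iff-2 to 901 bp at eif-3.J, and rfc-4 is the only other gene whose start is nearer than that of the bound gene.

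The summits of the bound members had a median distance of 300 bp upstream. Over the 610 bound genes of the genome, 543 (89.0%) had their highest peak upstream and the median distance was 246 bp. A divergent neighbour was counted as bound by the same peak in 5 of the 9 cases, at eef-1A.1, iff-2, erfa-3, eif-3.E and eif-1.A (F54C9.14 at iff-2 and H06H21.37 at eif-1.A, at 878 and 610 bp). Shared peaks were common in the genome, where 482 peaks gave the 610 bound genes. The share with a divergent neighbour was not counted there. In the whole set, 23 members had their nearest upstream protein-coding neighbour in head-to-head orientation, and 6 of these (26.1%) were bound, beside 4.42% of all genes so arranged. The 6 include eif-3.I, whose peak lay inside its own gene and not between the gene and its neighbour. The other 18 members followed a gene on the same strand, and 3 of these (16.7%) were bound, beside 1.93% of all such genes. In 7 of the 18 the gap was 500 bp or less, an arrangement that includes operons, and 1 of the 7, eif-3.C, was bound (14.3%, beside 2.10% of all such genes). The upstream gene was bound in 0 of the 18 cases, beside 3.05% of all genes, and 18 are too few to compare with such a share.

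Other genes that act on translation were examined as a fixed list of 45 entries, of which 42 matched a gene. A conservative promoter peak was found at 3 of the 42 (7.14%), beside 3.05% of all genes. These were larp-1, a La-related RNA-binding protein gene (signal value 107 in the series list, 47.1 in replicate 1 and 59.8 in replicate 2), abcf-2, an ABC-F ATPase gene (102, 48.3 and 57.6), and ifet-1, which encodes an eIF4E-binding translational repressor (90.1, 40.3 and 46.6). Their summits lay 639, 851 and 462 bp upstream. The 6 genes of the poly(A) and cap list had a median percentile of 93.6, with pab-1 and pab-2, the poly(A)-binding protein genes, at 93.1 and 94.1 without a conservative peak. None of the 11 TOR pathway genes was bound (median percentile 63.4), nor any of the 4 genes of eIF2 kinases and the stress response, the 6 for factor modification, the 5 mitochondrial factor genes or the 4 factor subunits with other names. The last group, egl-45, inf-1 (eIF4A), iffb-1 (eIF5B) and drr-2 (an eIF4H-like protein), had a median percentile of 58.0. Each of these lists without a bound gene is too short to compare with the 3.05% of all genes.

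For comparison, 16 of 78 ribosomal protein genes (20.5%) and 1 of 32 aminoacyl-tRNA synthetase genes (3.12%) were bound, with median percentiles of 76.8 and 61.3. Whether the translation factor genes differ from either group was not tested. Members had a single annotated start less often than all genes (53.7% against 73.7%), and each further start can widen the region searched. The median window was 1501 bp for members and for all genes. That is the window of a gene with 1 start, as most genes of each group are, so these medians cannot show whether windows differ. The median number of ranked peaks in a window was 2 in each, and the effect of wider windows was not tested. Among genes with 1 start, a comparison chosen after seeing the data, the 22 members had a median percentile of 80.4.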

How the data were processed

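The authors deposited ChIP-seq peak lists in ce11 coordinates, per the file headers and notes: a ranked and a thresholded IDR list for each of 2 replicates and 2 of each for both together. The ranked list used here holds 111583 peaks, the other 112690, and those of replicates 1 and 2 hold 63024 and 50044. The authors' signal value of a peak is comparable only within its list. The deposited score and −log10 q-value columns were not used. No source used here gives the peak caller, aligner, versions, depth or treatment of multiply mapping reads.

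Ensembl release 115 gene models (WBcel235) gave starts and windows, and the RefSeq WBcel235 genome gave the sequences. The sequence and motif matches at 1 bound site are not reported here. Every peak end lay within its chromosome. A percentile is the mean rank of a gene among all protein-coding genes. A replicate's value at a bound site is that of its ranked peak with the nearest summit within 100 bp; elsewhere it is the highest in the window. Small-RNA genes were those annotated as tRNA, snoRNA, snRNA, miRNA or rRNA. The window join was tested on simulated data. Python 3.11.15, pandas 2.3.3 and numpy 2.4.6 were used. Members and lists were chosen with earlier results of these data known, so no test over them was made. The rule for values in full took bound members, eif-3 genes, the 10 highest and 5 lowest members, and paralogs of these; other members are given by percentile. With 1 group, nothing was compared between conditions, and 2 replicates give the only error.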

Additional observations from a re-analysis of the deposited data

How the results depend on the processing

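The count of 9 bound genes was lower in some lists. With only conservative peaks at or above that list's median signal it was 5, of which 3 were eif-3 genes, beside 1.83% of all genes. With either replicate left out it was 3 to 3 for all members and 2 to 2 for eif-3 genes, in lists that mark 1.52% and 1.29% of all genes and differ both in the data used and in length. It was 8 or 9 with other windows, nearest starts, any overlap, the other thresholded list or without small-RNA peaks, and 4 or 5 for eif-3. These settings marked from 2.17% of all genes (500 bp upstream to 200 bp downstream, 8 members) to 4.12% (2000 bp upstream, 9 members). The median percentile was 64.9 with a window of 2000 bp upstream, and 66.2 to 75.7 with a replicate left out; the cause was not tested. Under the other alternatives it was 72.0 to 80.4. The count in the top 10% was 10 to 14 throughout. Depth is unknown, so a gene without a peak is one with no peak listed.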

Other observations

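The ranked list of both replicates and the replicates' own ranked lists did not always hold the same promoters. Of the 38 members with a peak in the former, 7 (18.4%) had none in the window in at least 1 replicate's list, against 46.9% of the 15562 genes with such a peak. For eif-6 and eif-3.L both replicates' lists had none, with values of 44.2 and 7.34 in the list of both. For eef-2 and eif-2alpha the peak was missing in replicate 1, and for eif-2beta, eif-1 and ifg-1 in replicate 2. The reverse was seen at eif-3.K, with a peak of 27.5 in replicate 2 and none in the list of both. All 9 bound members had a peak in every one of these lists.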
